A study of Mus musculus with 6 samples.

Results

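The BATF family and its partner IRF4 were followed through macrophages sorted from mouse heart allografts. The 4 genes Batf, Batf2, Batf3 and Irf4 were taken by name, each read from the brightest probe set that carries its symbol alone, and each had 1 such probe set. They are 4 of the 22180 genes measured. The set was selected on the changes of these genes between treated and untreated samples on these same arrays, Batf and Irf4 reading lower and Batf3 higher, so their changes with treatment are described here and not tested.

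In the samples named mTORi-HDL, C57BL/6 recipients of a BALB/c heart had been given mTORi-HDL, a lipoprotein nanoparticle loaded with an mTOR inhibitor, at 5 mg/kg on days 0, 2 and 5. In the samples named untreated, C57BL/6 recipients of a BALB/c heart received nothing and rejected it. Cells were isolated by flow sorting of the graft on day 6 and hybridised to 1 array per sample, with 3 samples in each group. No group received the particle without the drug, so effects of drug and carrier cannot be told apart, and the labels do not say whether a sample came from 1 recipient or several, so the spread between samples may be partly technical.

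BATF, BATF2 and BATF3 are small basic leucine zipper proteins of the AP-1 group. They pair with a JUN protein, and the pair can bind composite DNA sites together with IRF4 or IRF8, members of the interferon regulatory factor family. BATF is known for helper T cell differentiation, effector CD8 T cells and antibody class switching. BATF3 is known for the development of cross-presenting dendritic cells. BATF2 is induced by interferon-gamma in macrophages, and IRF4 acts in activated lymphocytes, plasma cells, a set of dendritic cells and alternatively activated macrophages.

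The upstream windows of Batf and Batf3, the pair with the widest contrast in the data, are shown because they differ strongly in base composition. Each runs over the 250 bases before the RefSeq transcription start in GRCm38.p6, on the plus strand, at chr12:85686470-85686719 for Batf and chr1:191098164-191098413 for Batf3, with GC boxes (GGGCGG on either strand) in capitals.
Batf: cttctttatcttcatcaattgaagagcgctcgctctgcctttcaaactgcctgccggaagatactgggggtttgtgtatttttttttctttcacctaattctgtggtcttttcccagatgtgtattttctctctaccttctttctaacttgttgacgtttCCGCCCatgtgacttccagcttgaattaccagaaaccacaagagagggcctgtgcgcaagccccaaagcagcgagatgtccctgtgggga
Batf3: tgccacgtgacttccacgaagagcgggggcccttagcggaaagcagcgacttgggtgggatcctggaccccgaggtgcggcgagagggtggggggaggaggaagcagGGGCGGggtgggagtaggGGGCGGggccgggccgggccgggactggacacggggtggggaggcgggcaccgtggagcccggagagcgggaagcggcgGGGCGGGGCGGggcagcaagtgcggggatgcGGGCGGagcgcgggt

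The Batf window was 46.4% G or C and held 7 CpG dinucleotides and 1 GC box. The Batf3 window was 76.0% G or C and held 27 CpG dinucleotides and 5 GC boxes, of which 2 overlap by 1 base. Over 32851 windows of the same length the median was 52.4% G or C and 6 CpG dinucleotides, and 32.7% held a GC box. The Irf4 window, at chr13:30748983-30749232 on the plus strand, lay between them at 63.6%, with 11 CpG dinucleotides and 2 GC boxes. Batf2 was not matched. On both strands, the AP-1 letters TGANTCA (6.75% of all windows) were in 0 of these 3 windows, as was TGACGTCA (1.55%). So were 3 spaced motifs of interferon regulatory factors and their partners, GAAA followed after 2 bases by GAAA (2.98%), GGAA followed after 2 bases by GAAA (2.30%), and the composite of TTTC followed after 4 bases by TGANTCA (0.10%), which contains the AP-1 letters. The letters CACGTG (6.02%) and TTCNNNGAA (7.02%) were each found once, in Batf3. These matches describe letters in a window only.

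Array mTORi-HDL 1 was unlike the other 5. Across probe sets its SD was 1.68, where theirs was 2.04 to 2.09, and its slope against their mean was 0.641, so bright genes read lower on it and dim genes higher. It correlated with them at 0.71 to 0.74, where they correlated with each other at 0.89 to 0.91. Values without it are therefore given for the 4 genes and the list medians, and for other genes where leaving it out moved the change by over 1.5 times. Other values are over all 6 arrays. In limma's test 0 of 22180 genes passed an adjusted p of 0.05 over 6 arrays (smallest adjusted p = 0.181) and 0 without mTORi-HDL 1 (smallest adjusted p = 0.0919), with 1029 and 1547 genes at an unadjusted p under 0.05. The 1029 are a smaller share of all genes than the 0.05 expected at that threshold if no gene differed, and the 1547 a larger one. All levels below are log2 RMA values and all changes are mTORi-HDL minus untreated on that scale.

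Batf carried the widest change of the 4 genes. Its log2 level was 4.96, 5.92 and 6.00 on mTORi-HDL arrays 1, 2 and 3, against 8.17, 8.01 and 8.41 on untreated arrays 1, 2 and 3. Every treated array lay below every untreated one, with a gap of 2.00 between the groups, while the range within a group was 1.05 among treated and 0.40 among untreated arrays. The mean was 5.63 ± 0.58 in mTORi-HDL and 8.20 ± 0.20 in untreated samples (SD, n = 3 each), a change of -2.57 ± 0.35 (SE). In linear terms Batf was lower by a factor of 5.93. The change was -2.23 ± 0.23 without mTORi-HDL 1. Ordered by change, Batf stood 29th from the lowest of all 22180 genes.

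Batf3 lay on the other side. Its log2 level was 7.93, 7.33 and 7.24 on mTORi-HDL arrays 1, 2 and 3, against 6.21, 6.04 and 5.29 on untreated arrays 1, 2 and 3. The groups again did not overlap, with a gap of 1.03 between them, and the lowest array of all was untreated 3. The mean was 7.50 ± 0.37 in mTORi-HDL and 5.85 ± 0.49 in untreated samples (SD, n = 3 each), a change of 1.65 ± 0.35 (SE) or a linear ratio of 3.14. Without mTORi-HDL 1 the change was 1.44 ± 0.32. Batf3 stood 60th from the highest change of all genes.

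Batf2, the interferon-inducible member, was split within the treated group. Its log2 level was 5.87, 7.02 and 7.85 on mTORi-HDL arrays 1, 2 and 3, against 5.93, 6.12 and 6.13 on untreated arrays 1, 2 and 3. Treated arrays 2 and 3 were above all untreated arrays, and mTORi-HDL 1 was below all of them, so the groups overlapped. The mean was 6.91 ± 0.99 in mTORi-HDL and 6.06 ± 0.12 in untreated samples (SD, n = 3 each). The change of 0.85 ± 0.48 (SE) was smaller than the SD among treated arrays. It came to 1.37 ± 0.29 without mTORi-HDL 1 and to 0.38 ± 0.42 without mTORi-HDL 3.

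Irf4 showed no separation of the groups. Its log2 level was 5.14, 6.44 and 6.43 on mTORi-HDL arrays 1, 2 and 3, against 6.70, 6.67 and 6.41 on untreated arrays 1, 2 and 3. Treated arrays 2 and 3 lay just above untreated 3, and mTORi-HDL 1 alone was low. The mean was 6.00 ± 0.75 in mTORi-HDL and 6.59 ± 0.16 in untreated samples (SD, n = 3 each), a change of -0.59 ± 0.40 (SE), which was smaller than the SD among treated arrays. Without mTORi-HDL 1 it was -0.16 ± 0.22. Batf and Batf3 thus differed in opposite directions with no overlap between groups, while the lower mean of Irf4 rests on 1 array. Groups that did not overlap were found for 5.37% of all genes with higher and 5.53% with lower treated values.

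**Figure D1:**
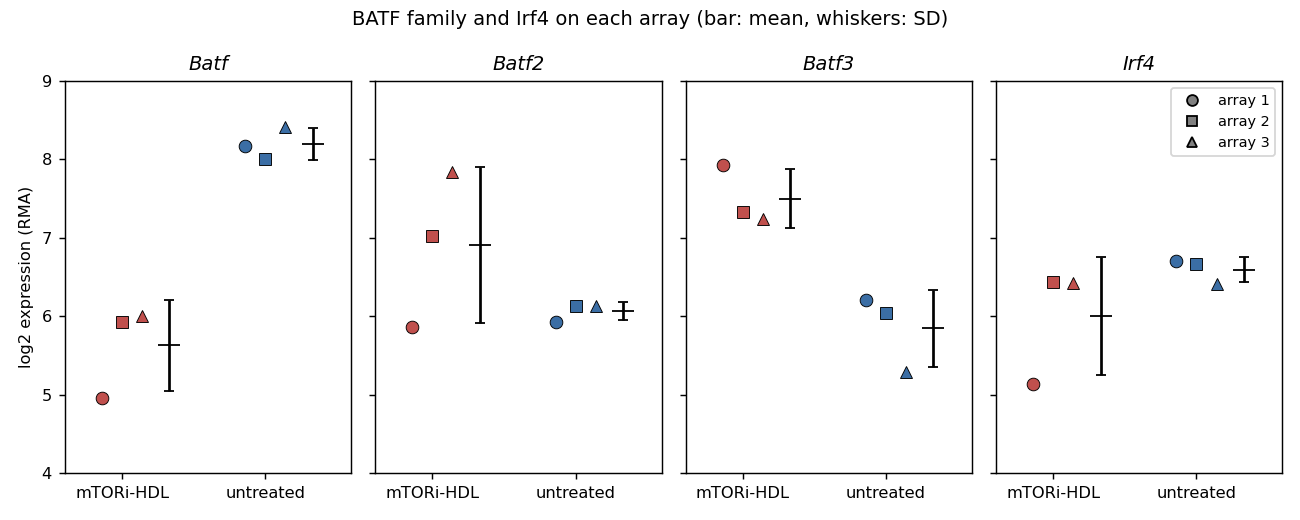
Log2 RMA expression (vertical axis) of Batf, Batf2, Batf3 and Irf4 on each mTORi-HDL and untreated array, with array numbers as symbols and the mean and SD of 3 arrays as bars. The groups are apart for Batf (treated mean 5.63, untreated 8.20) and Batf3 (7.50 and 5.85), and overlap for Batf2 and Irf4, where mTORi-HDL 1 lies low.

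Within each array, the place of a gene among all 22180 genes does not depend on the array's overall spread. Batf lay at percentiles 71.0, 80.2 and 81.1 on mTORi-HDL arrays 1, 2 and 3, against 95.2, 94.0 and 95.9 on untreated arrays 1, 2 and 3. Batf3 lay at percentiles 97.3, 90.8 and 90.8 on the treated arrays, against 83.5, 80.4 and 72.9 on the untreated ones. Both genes thus separated the groups by rank as well, including on mTORi-HDL 1. These ranks restate the values by which the genes were chosen, so they are no further support. Batf2 lay at percentiles 89.4, 89.0 and 93.8 on the treated arrays, against 80.7, 81.1 and 82.2 on the untreated ones. By rank, unlike by level, all 3 treated arrays were above all untreated arrays for Batf2. Ranking takes out the narrow spread of mTORi-HDL 1 but not its low correlation with the other arrays, so its ranks stay less comparable. Irf4 lay at percentiles 76.0, 84.8 and 85.0 on the treated arrays, against 87.5, 85.7 and 84.6 on the untreated ones, and its groups overlapped by rank too.

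The difference Batf minus Batf3 was taken on each array. Since a probe set's brightness depends on its own probes, only the shift of this difference between groups can be read. It was -2.97, -1.41 and -1.23 on mTORi-HDL arrays 1, 2 and 3, against 1.96, 1.97 and 3.13 on untreated arrays 1, 2 and 3. All treated arrays were lower, with a gap of 3.19 to the nearest untreated array. The mean was -1.87 ± 0.96 in mTORi-HDL and 2.35 ± 0.67 in untreated samples (SD, n = 3 each), a shift of -4.22. Without mTORi-HDL 1 the shift was -3.67. Batf also shifted against Irf4 by -1.98, and by -2.07 without that array. Batf2 and Batf3 differed less from each other, with a shift of -0.80 for Batf2 minus Batf3 and of -0.07 without mTORi-HDL 1, and their groups overlapped.

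**Figure D2:**
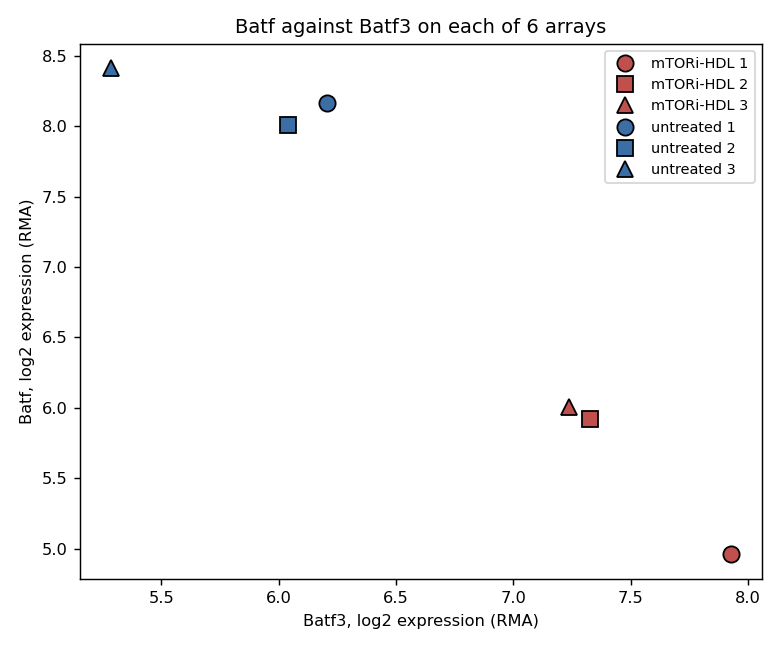
Log2 RMA expression of Batf (vertical axis) against Batf3 (horizontal axis), 1 point per array. The 3 mTORi-HDL arrays lie at lower Batf (4.96 to 6.00) and higher Batf3 (7.24 to 7.93) than the 3 untreated arrays (8.01 to 8.41 and 5.29 to 6.21).

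JUN proteins, which complete the DNA-binding pair, showed no shared direction. All 3 JUN genes were measured, with 0 at an unadjusted p under 0.05 in limma's test, where 1.57% of all genes were higher and 3.07% lower at that level. Junb had a log2 change of 0.05 ± 0.28 (SE), Jun of 0.24 ± 0.39 and Jund of -0.39 ± 0.61. Without mTORi-HDL 1 these were 0.16, 0.48 and -0.92. Their median was 0.05, and 0.16 without that array, while that of all genes was 0.08. Among 10 measured FOS proteins and other factors of AP-1 sites the median was 0.09, and 0.37 without mTORi-HDL 1, with 1 gene higher and 0 lower at that p. That gene was Fos, with a log2 level of 5.89, 7.33 and 7.99 on mTORi-HDL arrays 1, 2 and 3, against 5.69, 5.55 and 5.50 on untreated arrays 1, 2 and 3 (change 1.49 ± 0.51, limma adjusted p = 0.890). Bach2, a repressor that competes for AP-1 sites, had a change of -0.24 ± 0.38, and of 0.12 without mTORi-HDL 1. Maf ranged from 4.29 on mTORi-HDL 1 to 9.92 on mTORi-HDL 3, a spread wider than its change of -2.29 ± 1.28, which was -0.69 without mTORi-HDL 1.

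Of 6 other interferon regulatory factors measured, 0 were at an unadjusted p under 0.05 over 6 arrays. Without mTORi-HDL 1 2 were higher and 0 lower at that p, against 3.47% and 3.51% of all genes. The 2 were Irf1 (0.96 ± 0.32) and Irf2 (0.77 ± 0.31), named here after their values were seen. Irf8, the other partner of BATF proteins and a factor of cross-presenting dendritic cells, had a log2 level of 9.47, 10.78 and 9.73 on mTORi-HDL arrays 1, 2 and 3, against 9.23, 9.81 and 9.38 on untreated arrays 1, 2 and 3. Its groups overlapped, with a change of 0.52 ± 0.40 (SE), and of 0.78 ± 0.36 without mTORi-HDL 1. Irf3 and Irf9, of antiviral signalling, had changes of -1.06 ± 0.56 and -0.79 ± 0.45, and of -0.63 and -0.61 without that array. The 6 genes had a median change of -0.33, and of 0.62 without mTORi-HDL 1.

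T cell genes had lower values on the treated arrays. All 17 measured T cell markers had a lower mean in treated samples, 11 at an unadjusted p under 0.05 against 3.07% of all genes, and 0 passed adjustment over all genes. For 13 of them the treated arrays were all below the untreated ones, where 5.53% of all genes were. Their median change was -1.49, and -0.97 without mTORi-HDL 1. Cd3g, which encodes the gamma chain of CD3, had a log2 level of 8.63, 9.57 and 9.56 on mTORi-HDL arrays 1, 2 and 3, against 10.66, 10.96 and 10.74 on untreated arrays 1, 2 and 3 (change -1.53 ± 0.34, limma adjusted p = 0.696). Cd6, a T cell surface receptor, had a change of -1.49 ± 0.34, Zap70, a kinase of the receptor, one of -1.20 ± 0.30 and Cd4 one of -2.60 ± 0.85. For Cd4 it was -1.51 without mTORi-HDL 1. The mean log2 level over the T cell markers ranged from 6.04 to 7.75 in mTORi-HDL and from 8.53 to 8.75 in untreated samples, so T cell transcripts were present in cells sorted as macrophages in both groups. Batf's change of -2.57 lay within the range of the markers, -2.60 to -0.65, with 1 marker lower. Without mTORi-HDL 1 it was -2.23, below all 17 markers, which ran from -1.58 to -0.08. In sorted pools fewer cells of a type and less RNA per cell cannot be told apart, and the part of T cells in the level of Batf was not tested.

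Genes of T cell differentiation known to involve BATF and IRF4 had lower values as well. Of 33 measured, 30 had a lower treated mean. At an unadjusted p under 0.05 11 of the 30 were lower and 2 of the other 3 higher, against 3.07% and 1.57% of all genes. Their median change was -1.01, and -0.55 when mTORi-HDL 1 was left out, and 0 passed adjustment. Ctla4, an inhibitory receptor, had a log2 level of 7.43, 7.65 and 7.57 on mTORi-HDL arrays 1, 2 and 3, against 8.92, 9.32 and 8.86 on untreated arrays 1, 2 and 3, with a change of -1.48 ± 0.26 (limma adjusted p = 0.471). Ccr8, a chemokine receptor of tissue regulatory T cells, had a change of -3.51 ± 0.71 and was the 1 gene of the list below Batf. Klrg1, of terminal effector lymphocytes, had -2.10 ± 0.38. Prdm1, the factor BLIMP1 that IRF4 is known to activate, had -0.31 ± 0.37, and 0.05 without mTORi-HDL 1, with overlapping groups. The 2 genes higher at an unadjusted p under 0.05 were the interleukin-17 genes Il17a and Il17f, named here after their values were seen. They encode cytokines of helper T cells that need BATF and IRF4. Il17a had a log2 level of 5.17, 3.63 and 5.10 on mTORi-HDL arrays 1, 2 and 3, against 3.21, 3.36 and 3.23 on untreated arrays 1, 2 and 3 (change 1.37 ± 0.44, limma adjusted p = 0.890). Il17f had a change of 0.94 ± 0.34, and its groups did not overlap either. On the untreated arrays and mTORi-HDL 2 the level of Il17a was below the median of the array (3.85 to 3.96), so its signal was low. With mTORi-HDL 1 left out, the higher mean of Il17a rests mainly on mTORi-HDL 3. Without mTORi-HDL 1 the changes of Il17a and Il17f were 1.10 and 0.74. At an unadjusted p under 0.05 1 gene of the list was then higher and 9 lower, against 3.47% and 3.51% of all genes.

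Cell division genes had low values on the same arrays as Batf. All 19 measured had a lower mean in treated samples, 15 at an unadjusted p under 0.05, against 3.07% of all genes, and 0 after adjustment. Their median change was -1.74, and -1.58 without mTORi-HDL 1. Kif11, a spindle motor, had -3.07 ± 0.36, and 4 of the 19 lay below Batf. The 4 named genes whose 6 values, each centred on its own mean, lay nearest to those of Batf were H2bc18, a histone gene, Bora, a cofactor of Aurora A kinase, Ube2c, an enzyme of mitotic exit, and Ccnb2, cyclin B2. Their root mean square differences from Batf were 0.18, 0.29, 0.30 and 0.32 on the log2 scale over 6 arrays, where Irf4 differed from Batf by 1.01. Without mTORi-HDL 1 they took places 2, 6, 1 and 9, counted with predicted genes and small RNAs included. This likeness is dominated by the difference between the groups.

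Other lymphocyte lists gave smaller values. Of 12 measured genes of B cell switching and plasma cells 11 had a lower mean. At an unadjusted p under 0.05 3 were lower, against 3.07% of all genes, and 0 passed adjustment. Their median change was -0.76, and -0.42 without mTORi-HDL 1. The 3 genes at that p were Spib, an ETS factor (-1.32 ± 0.47), Pou2af1, a B cell coactivator (-1.08 ± 0.44), and Ms4a1, the surface protein CD20 (-0.83 ± 0.35). Of 9 NK cell markers 7 had a lower mean, 0 at an unadjusted p under 0.05, with a median of -0.34, which was -0.18 without mTORi-HDL 1 and -0.08 without untreated 3. Prf1, perforin, had -1.69 ± 0.78, and -0.73 without mTORi-HDL 1.

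**Figure D3:**
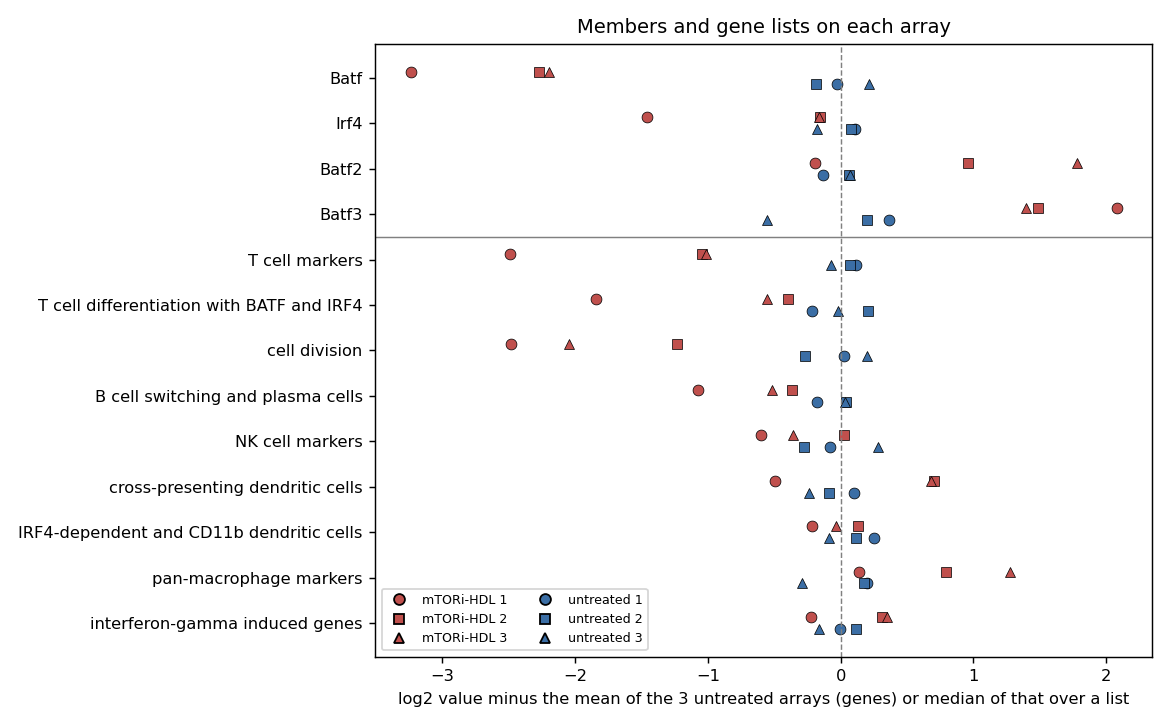
Log2 value on each array minus the mean of the 3 untreated arrays (horizontal axis) for the 4 genes, and the median of that value over gene lists. Batf lies at -3.24, -2.27 and -2.19 on mTORi-HDL arrays 1, 2 and 3, where the T cell marker median lies at -2.49, -1.04 and -1.01, while Batf3 lies at 2.08, 1.48 and 1.39.

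Cross-presenting dendritic cell genes, the setting in which BATF3 is best known, were mixed. Of 19 measured, 11 had a higher and 8 a lower mean in treated samples. At an unadjusted p under 0.05 2 were higher and 3 lower, against 1.57% and 3.07% of all genes, and 0 passed adjustment. Their median change was 0.18, against 0.08 for all genes, and 0.45 without mTORi-HDL 1, when 8 were higher and 1 lower at that p, where 3.47% and 3.51% of all genes were. Tlr11, a toll-like receptor of these cells, had a log2 level of 5.12, 6.11 and 5.98 on mTORi-HDL arrays 1, 2 and 3, against 4.79, 4.34 and 4.19 on untreated arrays 1, 2 and 3 (change 1.29 ± 0.35, limma adjusted p = 0.854). Xcr1, their chemokine receptor, had a log2 level of 4.02, 6.47 and 5.93 on mTORi-HDL arrays 1, 2 and 3, against 4.68, 4.51 and 4.34 on untreated arrays 1, 2 and 3. Its change was 0.96 ± 0.60, and 1.69 ± 0.26 without mTORi-HDL 1. It was high on treated arrays 2 and 3 and lowest on mTORi-HDL 1, the array on which Batf3 was highest. Rab7b, higher at an unadjusted p under 0.05 over 6 arrays as Tlr11 was, had a change of 1.63 ± 0.60 with overlapping groups. Without mTORi-HDL 1 the change of Rab7b was 2.30. The 3 genes lower at that p were Cxcr3 (-2.01 ± 0.43), Cd8a (-1.54 ± 0.63) and the integrin Itgae (-1.11 ± 0.44), each of which T cells also express. For Cd8a and Itgae the changes were -0.90 and -0.72 without mTORi-HDL 1. Zbtb46, a factor of conventional dendritic cells, had a change of 0.18 ± 0.31, and of 0.10 without mTORi-HDL 1, at mean levels of 4.08 in mTORi-HDL and 3.90 in untreated samples. The mean level over the list ranged from 5.09 to 6.65 in mTORi-HDL and from 5.86 to 6.03 in untreated samples, and the part of dendritic cells in the level of Batf3 was not tested.

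Over 6 arrays Batf3 had a higher change than all 19 of these genes, and without mTORi-HDL 1 a higher one than 13 of them. The named genes nearest to Batf3 over 6 arrays were Cxcl13, a B cell attracting chemokine, Mcee, an enzyme of methylmalonyl-CoA metabolism, the olfactory receptor gene Olfr765, and Rmdn1. Their root mean square differences were 0.22, 0.22, 0.25 and 0.26. Without mTORi-HDL 1 these differences were 0.23, 0.18, 0.26 and 0.29. The 4 genes then took places 25, 12, 36 and 54, counted with predicted genes and small RNAs included. Those were left out over 6 arrays, so the places cannot be compared. Cxcl13 had a log2 level of 6.87, 6.31 and 6.39 on mTORi-HDL arrays 1, 2 and 3, against 5.64, 4.77 and 4.26 on untreated arrays 1, 2 and 3. Like Batf3, it was highest on mTORi-HDL 1 and lowest on untreated 3.

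The dendritic cell and macrophage lists linked to IRF4 gave medians of 0.02 to 0.11 over 6 arrays, where all genes had 0.08. Of 15 genes of IRF4-dependent and CD11b dendritic cells 8 had a higher and 7 a lower mean, 0 at an unadjusted p under 0.05. Their median was 0.06, and 0.11 without mTORi-HDL 1. Without that array 3 of them were higher and 0 lower at that p, against 3.47% and 3.51% of all genes. Ccl17, a chemokine of these cells, had 1.48 ± 0.84, Pdcd1lg2, the PD-1 ligand 2, had -0.99 ± 0.64, and Ltb, lymphotoxin beta, had -1.91 ± 0.91. Without mTORi-HDL 1 Pdcd1lg2 had -0.31 and Ltb -0.88. Of 13 genes of mature migratory dendritic cells 2 were higher at that p, against 1.57% of all genes, and 0 lower. The 2 were the costimulatory genes Cd40 (1.39 ± 0.32) and Cd86 (1.69 ± 0.54). Tnfrsf4 (-0.58 ± 0.25) and Stat4 (-2.28 ± 1.19, and -0.69 without mTORi-HDL 1) were lower on every treated than on every untreated array. Without mTORi-HDL 1 4 genes were higher and 2 lower at that p, against 3.47% and 3.51% of all genes. The list median was 0.11, and 0.07 without mTORi-HDL 1. Of 13 genes of alternatively activated macrophages 2 were higher at that p over 6 arrays, against 1.57% of all genes, and 0 lower. They were Mrc1, the mannose receptor (1.19 ± 0.44), and Retnla (2.60 ± 1.07, and 1.36 without mTORi-HDL 1). The list median was 0.02, and 0.68 without mTORi-HDL 1. Retnla ranged from 6.12 to 10.55 in mTORi-HDL and from 4.63 to 6.56 in untreated samples. None of these passed adjustment. Genes nearest to Irf4 over 6 arrays were Psmb7, a proteasome subunit, Sec61g, a translocon subunit, Dipk2a and Cep120, a centrosome gene, with differences of 0.06 to 0.08. Each of the 4 was lowest on mTORi-HDL 1, as Irf4 was. Without that array they took places 111, 178, 173 and 267, counted with predicted genes and small RNAs included.

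Interferon-gamma induced genes, a setting of BATF2, had a median change of 0.07 over 6 arrays, where all genes had 0.08. Of 19 measured, 13 had a higher and 6 a lower mean in treated samples, while 58.2% of all genes had a higher one. At an unadjusted p under 0.05 2 were higher, against 1.57% of all genes, and 0 lower, and 0 passed adjustment. Without mTORi-HDL 1 the median change was 0.27, where all genes had -0.03. Then 16 of the 19 had a higher mean. At that p 4 were higher and 0 lower, against 3.47% and 3.51% of all genes. The 2 genes higher at that p over 6 arrays were the T cell attracting chemokines Cxcl10 (1.02 ± 0.34) and Cxcl9 (0.72 ± 0.29). Cxcl9 had a log2 level of 11.85, 12.48 and 12.52 on mTORi-HDL arrays 1, 2 and 3, against 11.59, 11.72 and 11.38 on untreated arrays 1, 2 and 3, with no overlap. Batf2's own change was higher than that of 18 of these 19 genes, and than all 19 without mTORi-HDL 1.

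Pan-macrophage markers bear on the label of the sorted cells. Of 18 measured 14 had a higher mean in treated samples, where 58.2% of all genes did. At an unadjusted p under 0.05 7 were higher, against 1.57% of all genes, and 0 lower, and 0 passed adjustment. The median change was 0.83, and 1.08 without mTORi-HDL 1. Without that array all 18 markers had a higher mean, 12 at that p, against 3.47% of all genes. Their mean log2 level ranged from 7.13 to 8.76 in mTORi-HDL and from 7.06 to 7.53 in untreated samples. The Fc receptor Fcgr1 had a change of 1.84 ± 0.44. Csf1r, the receptor of the macrophage growth factor, had a log2 level of 5.00, 8.75 and 9.08 on mTORi-HDL arrays 1, 2 and 3, against 8.19, 7.54 and 7.93 on untreated arrays 1, 2 and 3. Its change was -0.28 ± 0.997, and 1.03 ± 0.27 without mTORi-HDL 1. It was lowest on mTORi-HDL 1, and so was Adgre1, the F4/80 antigen, at 4.93. The nearest named gene to Batf2, over 6 arrays and without mTORi-HDL 1, was Axl, a receptor for apoptotic cells. Its root mean square difference over 6 arrays was 0.10. Axl had a log2 level of 5.22, 6.60 and 7.44 on mTORi-HDL arrays 1, 2 and 3, against 5.48, 5.49 and 5.63 on untreated arrays 1, 2 and 3. Phf11d, Emilin2 and Tmem65 followed at 0.19 to 0.20 over 6 arrays. Without mTORi-HDL 1 they took places 11, 15 and 17, counted with predicted genes and small RNAs included.

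**Figure D4:**
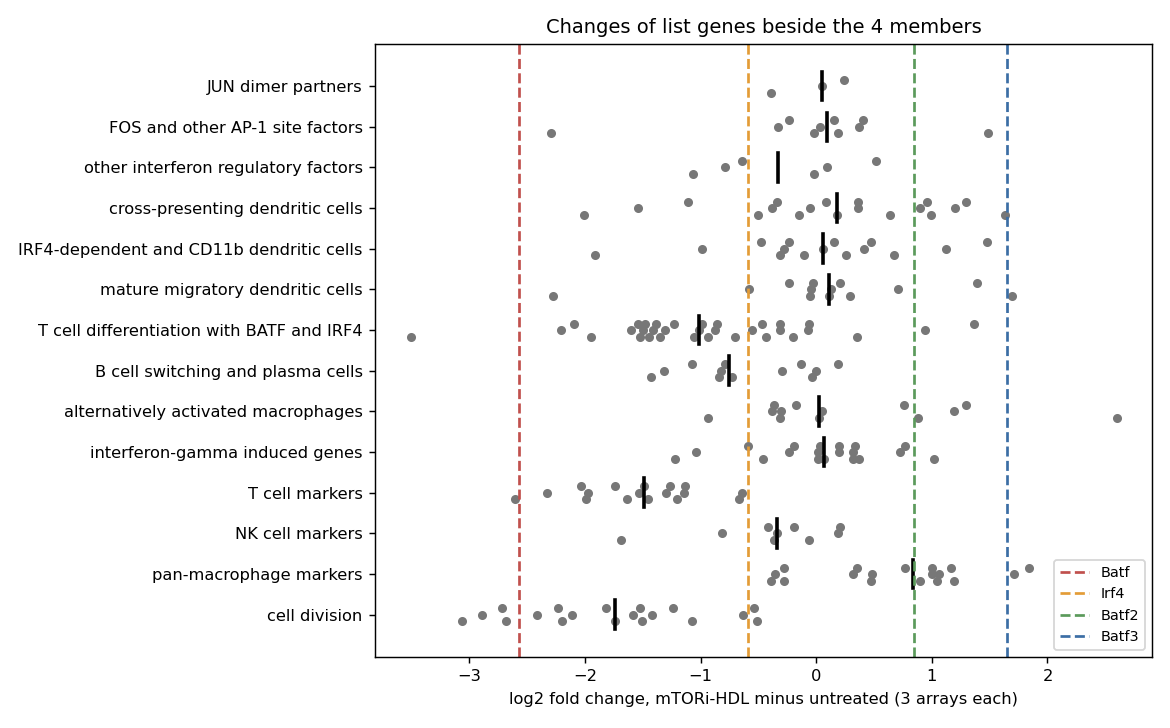
Log2 fold changes (horizontal axis, mTORi-HDL minus untreated, 3 arrays each) of the genes of 14 lists as points, list medians as black bars, and the 4 genes as dashed lines. Batf (-2.57) lies at the lower end of the T cell (median -1.49) and cell division (median -1.74) lists. Batf3 (1.65) lies above all 19 cross-presenting dendritic cell genes, but above only 13 of them without mTORi-HDL 1 (not drawn).

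The direction of Batf and Batf3 did not change under any of 16 other settings. Most of these could not have changed it. Each gene had 1 probe set and its groups did not overlap. Leaving out or weighting arrays, the level filter, the probe set mean, the variance model and the replicate block therefore keep the sign. Centring each array on its median moves the change of every gene by the same amount, here Batf from -2.57 to -2.67 and Batf3 from 1.65 to 1.55. Only the settings with quantile normalization or cyclic loess could have turned the sign. Batf's change ran from -2.76 to -2.08 and that of Batf3 from 1.35 to 2.12. Batf2 ran from 0.38 to 1.42 and Irf4 from -0.81 to -0.11. Irf4 came nearest to 0 in each setting without mTORi-HDL 1 and under cyclic loess.

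**Figure D5:**
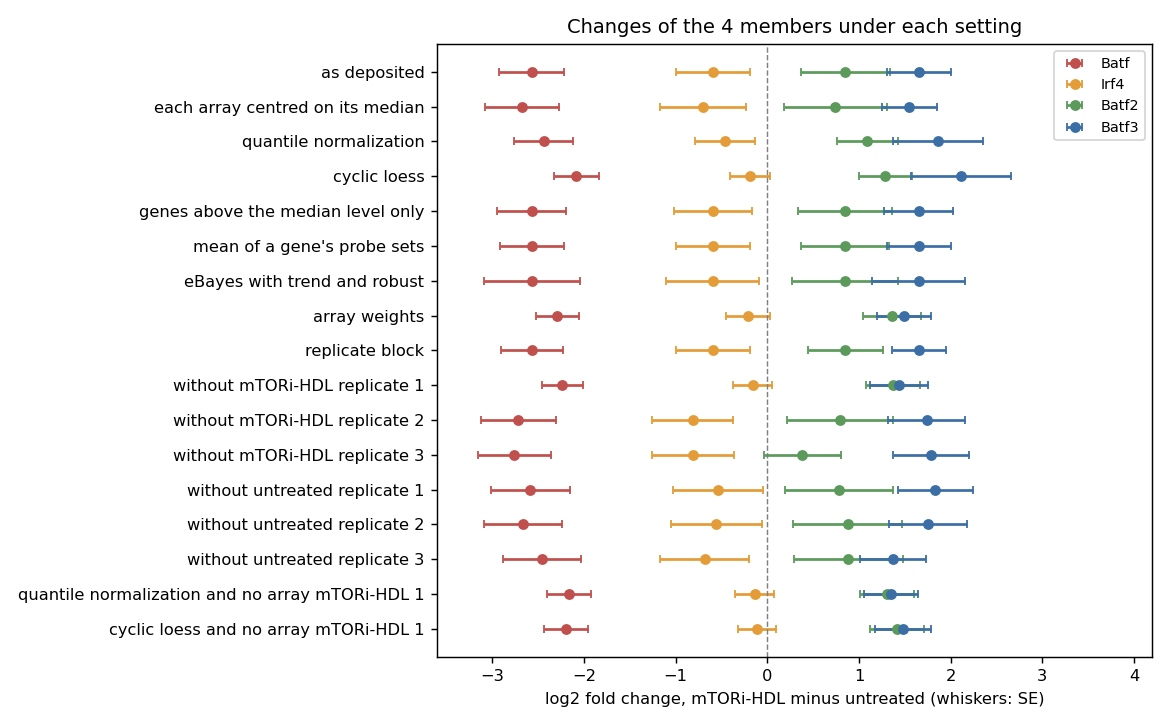
Log2 fold change (horizontal axis, mTORi-HDL minus untreated, whiskers SE) of the 4 genes as deposited and under 16 other settings. Batf lies between -2.76 and -2.08 throughout and Batf3 between 1.35 and 2.12, while Irf4 moves between -0.81 and -0.11.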

How the data were processed

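Expression was measured on 6 arrays, 3 per group. The authors deposited 41345 log2 values per array. The submitters' processing notes name RMA and Affymetrix Expression Console, with no version or genome build given in the sources used here. The RNA input was 15 ng, amplified before hybridisation, per the labels. RMA as a method corrects background, normalizes quantiles and summarises probes, so absolute differences between probe sets are not read. Arrays give no read depth, and their number limits the precision. No value was missing and 0 array pairs were identical.

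Through the platform annotation 23521 probe sets had 1 symbol, 1814 several and 16010 none. The brightest probe set of each gene (1082 had over 1) gave 22180 genes, with no filter. The comparison used R 4.3.3 and limma 3.58.1 (lmFit, eBayes, group only, 4 residual degrees of freedom, two-sided, Benjamini-Hochberg adjustment over all genes), and the fit was tested on simulated data. The genes of interest, the 14 lists (206 of 232 entries measured, 7 on probe sets of several genes, 19 not analysed here) and the tests were chosen with earlier results of these data known. Named genes were the 4 members, the 4 nearest profiles to each (predicted genes and small RNAs left out), in each list up to 3 genes of smallest p, and a panel of partners and markers. Promoter windows came from RefSeq (GRCm38.p6), with 3 of 4 members matched. In all 14 alternatives were planned and 2 were added after the data were seen.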

Additional observations from a re-analysis of the deposited data

How the results depend on the processing

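Under 14 planned settings and 2 added after seeing the data (quantile normalization or cyclic loess, each with mTORi-HDL 1 left out) no change of the 4 genes turned its sign. For Batf and Batf3, whose groups did not overlap, only quantile normalization or cyclic loess could have turned it. Cyclic loess moved Batf to -2.08 and Batf3 to 2.12, each by more than 1 SD between replicates. The other 15 settings moved each by less, and the Batf minus Batf3 shift stayed between -4.54 and -3.50. The count of genes past an adjusted p of 0.05 was 0 in all settings but array weights, where it was 1 (H2bc12, named after its values were seen, adjusted p = 0.02, against 0.181 unweighted), mTORi-HDL 1 having a weight of 0.15. At an unadjusted p under 0.05 there were 1029 genes as deposited, 1768 with array weights, 635 among genes above the median level, 615 to 1547 with 1 array left out (lowest without untreated 3, 655 without untreated 2, highest without mTORi-HDL 1), and 1555 and 1572 with mTORi-HDL 1 left out after quantile normalization and cyclic loess. The cause of these moves was not tested, apart from the fewer genes tested with the filter. With the replicate block the counts were 1183 and 0, and the changes of the 4 genes were as without it. Deviations of same-numbered samples from their group means correlated across genes at 0.14, 0.14 and -0.02. The same number gave the highest value for mTORi-HDL 1 and 2, while mTORi-HDL 3 correlated best with untreated 2. Deviations within a group sum to 0. Those of mTORi-HDL 2 and 3 had like correlations with each untreated array, such as 0.14 and 0.13 with untreated 2. The values therefore cannot decide whether the numbers pair samples, and the main fit used the group only. Centring each array on its median moved the median change of all genes to -0.03, against 0.08 as deposited, with Batf at -2.67 and Batf3 at 1.55. The medians of the interferon regulatory factor list (-0.33 as deposited, 0.62 without mTORi-HDL 1) and of the alternatively activated macrophage list (0.02 and 0.68) depended most on that array among the 14 lists. With each array left out in turn, the median of 7 of the 14 lists took both signs (JUN partners, FOS and other AP-1 factors, interferon regulatory factors, IRF4-dependent and mature dendritic cells, alternatively activated macrophages and interferon-gamma induced genes).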
